A study of Mus musculus with 12 samples.

Results

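The data described here are those of 39 genes of the basement membrane and the follicular matrix. The genes were chosen as a list of symbols of collagen, laminin, nidogen, perlecan, agrin, fibronectin, matricellular, fibulin, fibrillin and lysyl oxidase genes, and all 39 were found among the 26382 genes present in both expression tables. RNA was sequenced from WT and Sphk1/2gc-/- mice in 12 libraries, 3 for each genotype of 2 cell types. These were mural granulosa cells (MGCs), which form the wall layer of the follicle, and cumulus cells, which surround the oocyte. All groups came from immature females of 21 to 23 days that had received 5 IU of eCG (equine chorionic gonadotropin) and, 48 h later, 5 IU of hCG (human chorionic gonadotropin), and the cells were taken at 2 h post-hCG. WT mice were C57/BL6 animals that had been bought. Sphk1/2gc-/- mice lacked Sphk1 in every cell and carried Sphk2 fl/fl with Fshr-Cre, so that the loss of Sphk2 depended on the Fshr promoter, which is active in granulosa cells. Controls from the same litters are not mentioned, so that the breeding line and the genotype cannot be told apart. The labels tie no library to an animal or a pool, so the p-values given here measure the spread between libraries, which may be technical.

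A basal lamina encloses the granulosa layer of each follicle and separates it from the theca. Its main networks are built from collagen IV and laminin, linked by nidogens and filled by the heparan sulfate proteoglycans perlecan (Hspg2) and agrin (Agrn). Granulosa cells make much of this lamina and also lay down patches of basal lamina material between themselves. Cumulus cells do not lie on the lamina, and the matrix they are best known for is the hyaluronan network that forms after the LH surge.

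The values were FPKM (fragments per exon length, scaled to the library total), so that levels of different genes can be set side by side. The recovered reads came to 16100364 to 19761604 per library. The third Sphk1/2gc-/- MGC library stood apart, since its log2 values correlated at 0.912 to 0.939 with those of any other MGC library. The third WT cumulus library held 5801 genes at a single read, against 1602 to 1861 in the other cumulus libraries. The targeted gene Sphk1 had 37 to 151 reads in WT and 9 to 45 in Sphk1/2gc-/- MGCs, but 6 to 8 reads in WT cumulus libraries and 7 to 51 in the libraries labelled Sphk1/2gc-/-, which goes against the label. Sphk2 had 361 to 409 and 318 to 473 reads in MGCs and 27 to 45 and 34 to 60 reads in cumulus cells. The values are per gene, so that the exons removed by the deletion were not read apart. The directions given below are therefore those between libraries as labelled. None of the 10 granulosa markers was at 0 in any group.

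The matrix genes were first compared between the cell types of WT mice. Nearly the whole list was lower in cumulus cells than in MGCs. Of 37 genes tested, 34 were called lower and 0 higher in cumulus cells by limma on log2(FPKM + 1), where a call needs an adjusted p of at most 0.05 together with at least a 2-fold difference. The same limits called 34.5% of all 15339 genes tested lower and 16.0% higher. By adjusted p alone, 36 genes were lower (55.5% of all genes) and 0 higher (26.3%). At an unadjusted p of 0.05 or less, 37 were lower (56.2%) and 0 higher (26.7%), and limma-voom on recovered reads called 0 higher. The median difference of the 37 genes was -2.67 on the log2 scale, compared with -0.58 over all genes tested. The groups did not overlap for 35 of the 37 genes, and lower values without overlap were found for 56.3% of all genes. Of the 37 genes, 18 reached the mean of 0.5 FPKM that the test needs in MGCs alone, so that these had to be lower in cumulus cells. Lama3 and Lamb3, chains of epithelial laminins, stayed under that mean in both cell types. The 2 cell types were deposited in separate tables, and a common scaling of the tables is not stated, although the exon lengths fitted both tables or neither for 99.6% of 9321 genes compared. In bulk RNA, fewer cells of a type and less RNA per cell cannot be told apart. The MGC libraries also held more RNA of other cells than the WT cumulus libraries did, with summed endothelial markers of 21.6 to 26.2 against 0.371 to 1.34 FPKM and summed theca, fibroblast and smooth muscle markers of 198 to 381 against 18.2 to 66.7 FPKM. Summed oocyte markers were 36.0 to 91.9 FPKM in WT MGCs and 3.89 to 7.17 FPKM in WT cumulus cells. The granulosa markers had lower sums in WT cumulus cells too, with 4007 to 5186 against 9480 to 15902 FPKM in WT MGCs. Of these 10 markers, 7 were called lower (34.5% of all genes) and 1 higher (16.0%) in WT cumulus cells. The part of other cells in the difference was not tested.

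**Figure D1:**
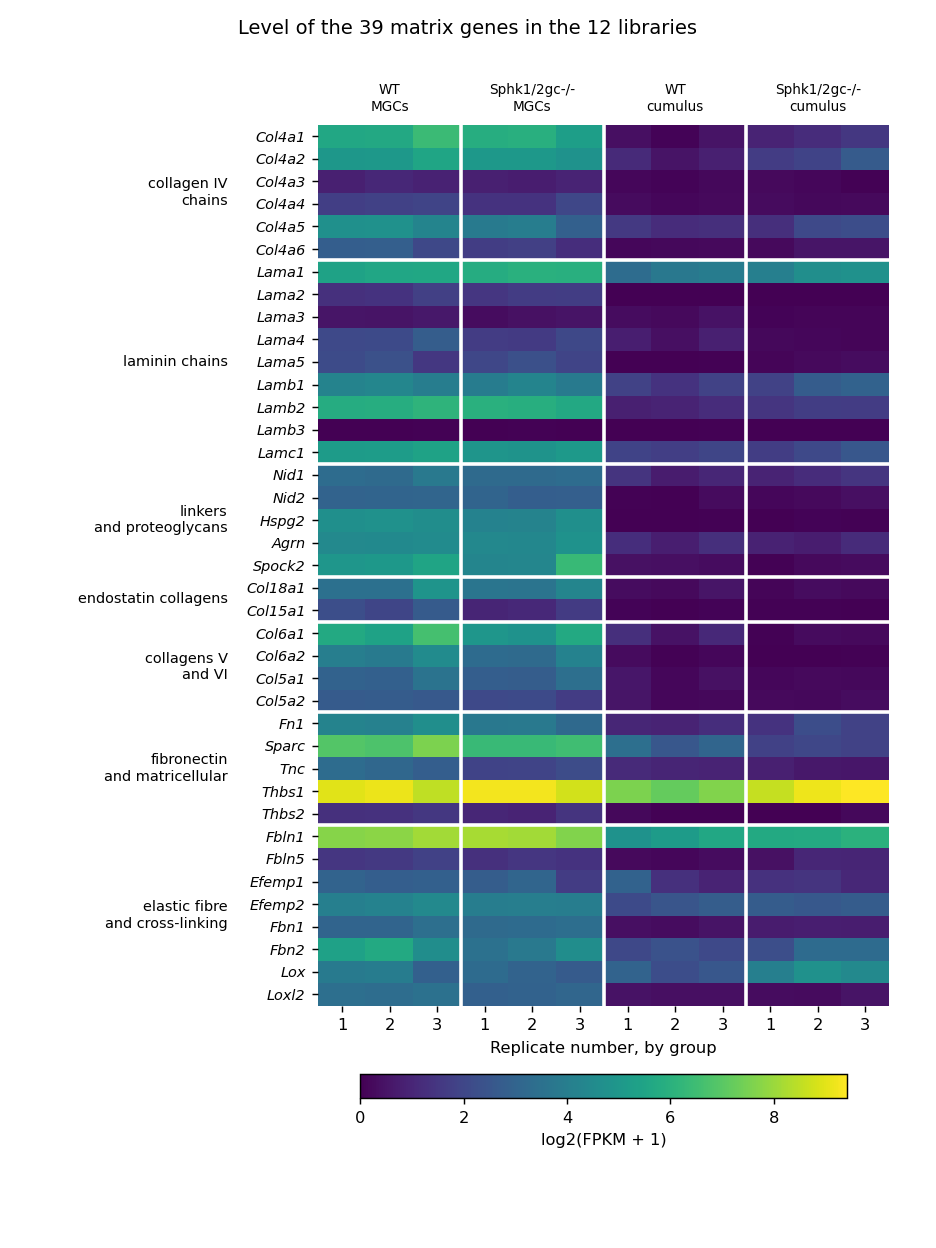
Heat map of log2(FPKM + 1) for the 39 matrix genes (rows, grouped by role) in the 12 libraries (columns, replicates 1 to 3 of each group). Thbs1 and Fbln1 are the brightest rows in every group, and most other rows are dark in the cumulus libraries, where 21 of the 39 genes stay under 1 FPKM in every WT library.

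Collagen IV forms the covalent scaffold of the lamina, in trimers built mainly from the products of Col4a1 and Col4a2, from those of Col4a3, Col4a4 and Col4a5, or from those of Col4a5 and Col4a6. Its genes lie in head-to-head pairs. Col4a1 (chromosome 8, 11198423 to 11312826, minus strand, 54 exon blocks) and Col4a2 (chromosome 8, 11312805 to 11449287, plus strand, 48 exon blocks) have RefSeq starts only 21 bases apart, and their promoter windows share 78 bases. The starts of Col4a5 and Col4a6 on chromosome X are 1343 bases apart. The windows of these 4 genes (RefSeq, GRCm38.p6, 250 bases before to 50 after the start) are printed because each pair is described together in the results that follow. They are Col4a1 at chr8:11312777-11313076 (minus strand), Col4a2 at chr8:11312555-11312854 (plus strand), Col4a5 at chrX:141475169-141475468 (plus strand) and Col4a6 at chrX:141474027-141474326 (minus strand). Capitals mark CCAAT or GGGCGG on either strand, so that ATTGG and CCGCCC are marked too.
Col4a1: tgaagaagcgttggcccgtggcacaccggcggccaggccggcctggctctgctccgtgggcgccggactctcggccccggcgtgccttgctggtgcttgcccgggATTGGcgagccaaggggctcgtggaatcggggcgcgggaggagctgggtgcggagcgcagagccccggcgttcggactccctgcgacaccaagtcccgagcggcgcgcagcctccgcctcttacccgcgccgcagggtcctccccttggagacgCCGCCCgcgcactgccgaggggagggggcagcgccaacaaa
Col4a2: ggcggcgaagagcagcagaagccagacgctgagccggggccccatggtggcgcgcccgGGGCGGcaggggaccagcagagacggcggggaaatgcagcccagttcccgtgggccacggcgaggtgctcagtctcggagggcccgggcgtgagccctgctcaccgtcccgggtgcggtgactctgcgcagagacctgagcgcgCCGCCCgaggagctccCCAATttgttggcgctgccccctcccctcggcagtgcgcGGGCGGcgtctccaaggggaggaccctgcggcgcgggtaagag
Col4a5: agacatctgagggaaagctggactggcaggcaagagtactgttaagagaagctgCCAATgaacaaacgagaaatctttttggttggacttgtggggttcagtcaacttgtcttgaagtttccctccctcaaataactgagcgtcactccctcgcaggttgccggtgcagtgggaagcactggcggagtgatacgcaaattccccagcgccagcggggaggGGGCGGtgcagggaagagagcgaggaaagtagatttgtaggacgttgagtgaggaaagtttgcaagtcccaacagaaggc
Col4a6: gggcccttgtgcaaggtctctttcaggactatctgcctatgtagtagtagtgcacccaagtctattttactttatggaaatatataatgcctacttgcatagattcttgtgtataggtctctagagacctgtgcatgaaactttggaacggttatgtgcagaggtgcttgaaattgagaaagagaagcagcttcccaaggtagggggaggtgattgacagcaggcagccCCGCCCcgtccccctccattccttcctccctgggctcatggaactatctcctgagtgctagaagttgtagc
CCAAT was found in the windows of Col4a1, Col4a2 and Col4a5, and GGGCGG in all 4 windows. No window of the 4 held TATAAA. RefSeq gave 36 windows for 27 of the 39 matrix genes. Of these windows, 22.2% held CCAAT, 66.7% GGGCGG, 8.33% TATAAA and 58.3% CANNTG, which can share letters with CCAAT. Over all 32851 windows the shares were 37.4%, 35.7%, 13.6% and 72.3%. A match is a description of letters in a window.

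In WT MGCs, Col4a1 had 49.6, 50.9 and 84.4 FPKM in libraries 1 to 3 and Col4a2 had 30.6, 31.4 and 46.0. In WT cumulus cells, Col4a1 was at 0.308, 0.0596 and 0.420 FPKM (37, 8 and 55 reads) and Col4a2 at 1.19, 0.403 and 0.766 (127, 48 and 89 reads). The groups were far apart for both genes. The log2 difference, cumulus cells minus MGCs, was -5.60 (SE 0.224, adjusted p = 6.07e-07) for Col4a1 and -4.37 (SE 0.215, adjusted p = 1.34e-06) for Col4a2. Col4a5 followed at a mean of 23.3 ± 4.47 FPKM (SD, n = 3) in MGCs and 1.54 ± 0.356 in cumulus cells. Col4a3, Col4a4 and Col4a6 were scarce in both, with means of 0.898, 2.58 and 5.13 FPKM in MGCs against 0.115, 0.169 and 0.149 in cumulus cells. Col4a3 differed by -0.77 on the log2 scale (adjusted p = 0.000407), which is less than the fold limit on a scale that understates the change of low genes.

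The mix of collagen IV transcripts also differed between the cell types. Col4a1 and Col4a2 together made 69.7%, 69.7% and 84.0% of the summed collagen IV FPKM in the WT MGC libraries, compared with 38.6%, 22.4% and 38.2% in WT cumulus cells. Col4a5 and Col4a6 made 27.5%, 27.3% and 13.7% in MGCs against 52.8%, 68.8% and 51.0% in cumulus cells. The sum of all 6 chains was 115 to 155 FPKM in WT MGCs but 2.07 to 3.89 FPKM in WT cumulus cells, so that the cumulus shares rest on few reads.

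**Figure D2:**
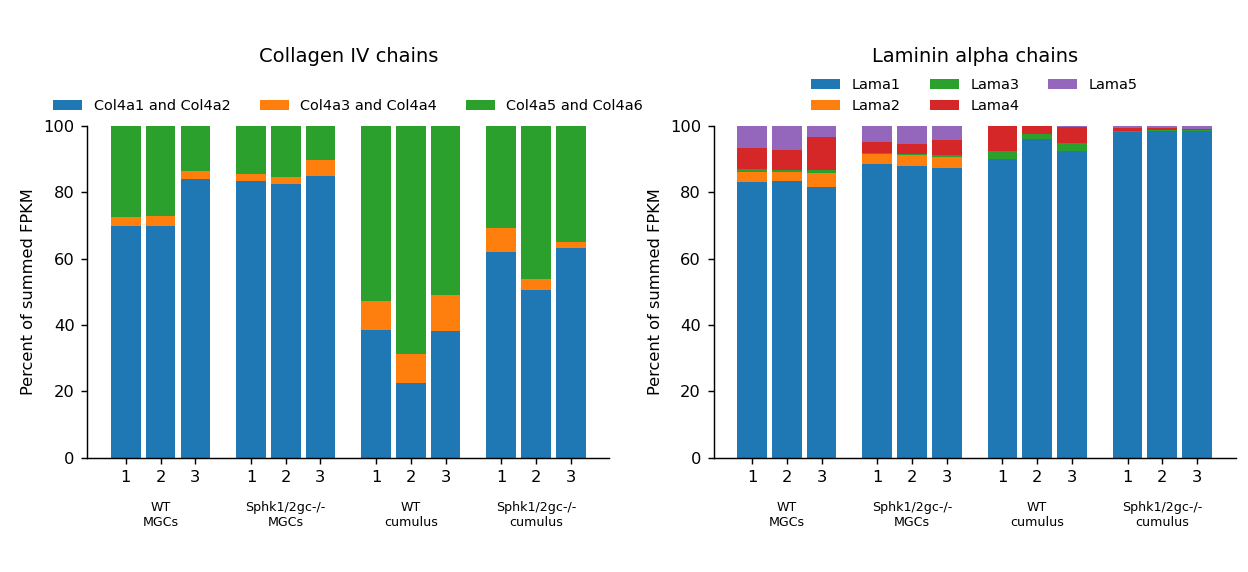
Stacked bars of the share, in percent, of each collagen IV gene pair (left) and each laminin alpha chain (right) in the summed FPKM of its family, for each library (replicates 1 to 3 of the 4 groups). Col4a1 and Col4a2 fill the largest part of each MGC bar, whereas Col4a5 and Col4a6 fill the largest part of each WT cumulus bar, and Lama1 makes at least 81.7% of the alpha chain transcripts in each library.

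Laminins are cross-shaped trimers of an alpha, a beta and a gamma chain. Lama1 was the main alpha chain, with 42.6, 47.0 and 47.9 FPKM in WT MGCs and 9.03, 12.7 and 14.5 in WT cumulus cells. All MGC libraries were above all cumulus libraries, with a log2 difference of -1.86 (SE 0.169, adjusted p = 2.92e-05). Lamb2, the beta chain that replaces Lamb1 in some laminins, had 55.7, 57.5 and 69.7 FPKM in MGCs against 0.797, 0.896 and 1.26 in cumulus cells (log2 difference -4.96, SE 0.138, adjusted p = 2.83e-07). Lamb1 was at 17.2 ± 2.12 FPKM in WT MGCs and 2.26 ± 0.584 in WT cumulus cells. Accordingly, Lamb2 made 75.0% to 82.3% of the beta chain transcripts of WT MGCs, and Lamb1 made 63.6% to 76.5% of those of WT cumulus cells. Lamc1, the common gamma chain, had 35.2, 36.0 and 42.04 FPKM in MGCs against 2.76, 2.39 and 2.91 in cumulus cells. Lama2, Lama4 and Lama5 had means of 1.84, 4.19 and 3.13 FPKM in MGCs and at most 0.603 FPKM (Lama4) in cumulus cells. Lama3 lay at 0.394 to 0.524 FPKM in WT MGCs, and Lamb3 had at most 4 reads in any cumulus library.

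The linkers and proteoglycans were also lower in cumulus cells than in MGCs. Hspg2, which encodes perlecan, had a mean of 25.03 ± 1.19 FPKM in WT MGCs, and 2, 5 and 10 reads in the WT cumulus libraries. Agrn had 20.6, 21.3 and 22.1 FPKM in MGCs against 1.35, 0.731 and 1.43 in cumulus cells. Spock2, which encodes the proteoglycan testican 2, had 30.1, 31.2 and 44.5 FPKM in MGCs against 0.326, 0.322 and 0.226 in cumulus cells. All 5 genes of this group, Nid1 and Nid2 included, were called lower in cumulus cells, with a median of -3.38 on the log2 scale. The endostatin collagens Col18a1 and Col15a1 had means of 16.1 and 4.07 FPKM in MGCs but 0.294 and 0.0408 in cumulus cells. Col6a1, a chain of the beaded microfibrils at the edge of the lamina, had 51.6, 41.7 and 98.2 FPKM in MGCs against 1.43, 0.381 and 1.13 in cumulus cells. Col6a2, Col5a1 and Col5a2 were called lower in cumulus cells as well.

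Thbs1 (thrombospondin 1, a secreted matricellular protein) and Fbln1 (fibulin 1, a glycoprotein of laminae and elastic fibres) were the most abundant genes of the list in all 4 groups. Thbs1 had 512, 562 and 367 FPKM in WT MGCs and 188, 144 and 198 in WT cumulus cells, where it made 64.5% to 68.4% of the FPKM of all 39 genes. Fbln1 had 210, 220 and 276 FPKM in MGCs against 26.9, 34.96 and 49.2 in cumulus cells. Sparc, which encodes a protein that binds collagen and calcium, had 119, 108 and 186 FPKM in MGCs against 9.99, 4.83 and 7.37 in cumulus cells. Lox and Efemp1 were not called. Lox, the lysyl oxidase that cross-links collagen and elastin, had 13.2, 14.6 and 6.44 FPKM in MGCs against 6.90, 3.74 and 4.85 in cumulus cells, so that the groups overlapped (log2 difference -0.97, SE 0.309, adjusted p = 0.0201, under the fold limit). Efemp1, which encodes fibulin 3, had 5.97 to 6.99 FPKM in MGCs and 0.922 to 6.89 in cumulus cells, where library 1 lay among the MGC values (adjusted p = 0.0543). Efemp1 was called lower with the replicate block (adjusted p = 0.0301), by voom on recovered reads (0.0167) and without the first WT cumulus library (0.000109). Of the remaining genes of these roles, Fn1 (fibronectin), Tnc (tenascin C), Thbs2, Fbln5, Efemp2, Fbn1, Fbn2 and Loxl2 were all called lower in cumulus cells.

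The same comparison in Sphk1/2gc-/- mice called 33 of 37 genes lower (33.1% of all 14983 genes tested) and 1 higher (14.4%) in cumulus cells. The gene called higher was Lox, with 8.82, 7.08 and 5.56 FPKM in MGCs against 15.7, 25.9 and 20.6 in cumulus cells (log2 difference 1.41, SE 0.238, adjusted p = 0.00142). Thbs1 did not pass the test, with 609, 606 and 432 FPKM in MGCs against 381, 578 and 684 in cumulus cells (log2 difference -0.03, 95% confidence interval -0.66 to 0.60). Its groups overlapped here, unlike those of WT mice. Col4a3 and Fbln5 passed the adjusted p but not the fold limit, so that 35 genes were lower by adjusted p alone (49.7% of all genes), and 35 were lower at an unadjusted p of 0.05 or less (51.7%). The median difference was -1.79, compared with -0.58 over all genes tested. Of the 37 genes, 17 reached the mean of 0.5 FPKM in Sphk1/2gc-/- MGCs alone, so that these had to be lower in cumulus cells.

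**Figure D3:**
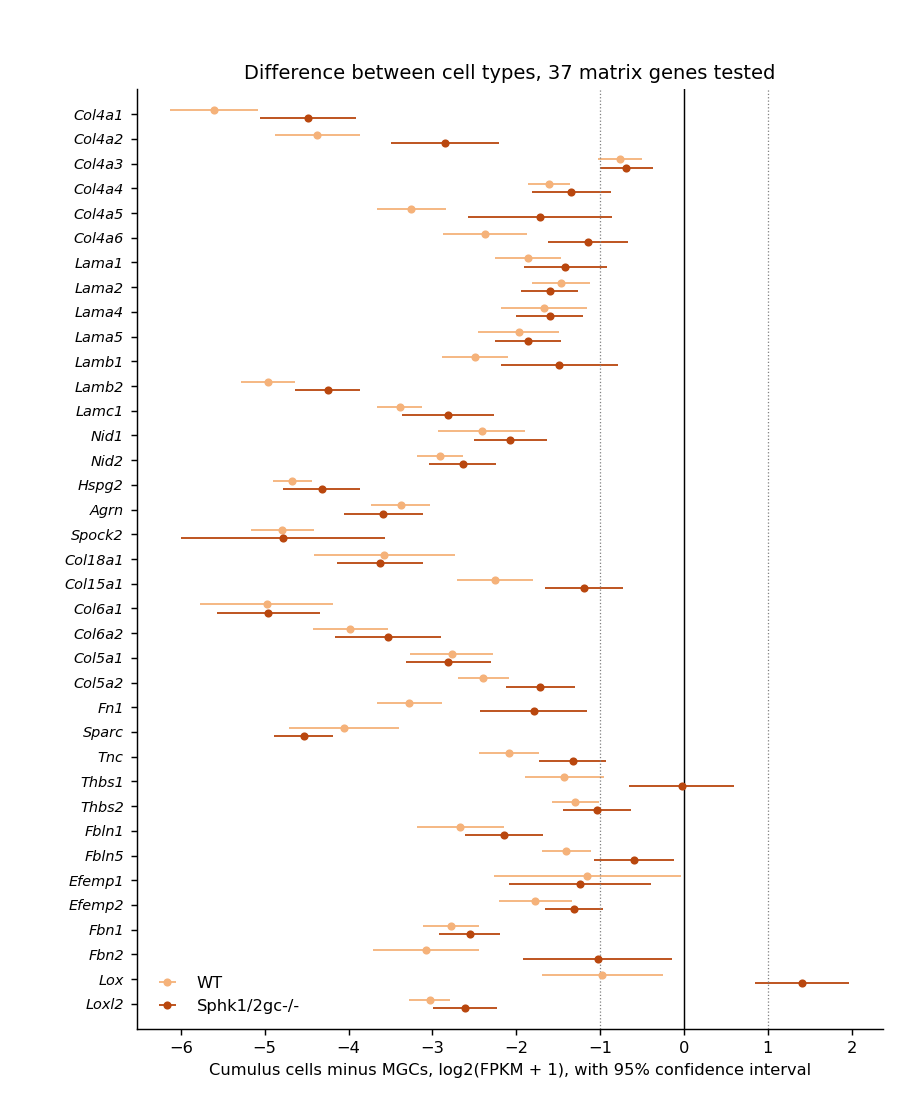
Log2 difference (cumulus cells minus MGCs, on log2(FPKM + 1)) of the 37 matrix genes tested, with 95% confidence intervals, in WT mice (light) and Sphk1/2gc-/- mice (dark), dotted lines marking a fold change of 2. All WT points lie below 0, and among the Sphk1/2gc-/- points only that of Lox lies above 1.

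The genotypes were next compared within cumulus cells, where 22 of the 39 genes could be tested. Of these, 16 had higher and 6 had lower estimates in Sphk1/2gc-/- cumulus cells. Lox, Thbs1 and Col4a2 were called higher (3 of 22, where 4.19% of all 12205 genes tested were called higher) and Sparc was called lower (1 of 22, where 3.85% were called lower). By adjusted p alone, 7 genes were higher (9.66% of all genes), with Col4a1, Lamb2, Lama1 and Fn1 added, and 2 were lower (12.7%), with Col6a1 added. Of the 22 genes, 5 reached the mean of 0.5 FPKM in their higher genotype alone and so had to differ, which were Col4a1, Fbln5 and Fbn1 through Sphk1/2gc-/- and Col6a1 and Lama4 through WT cumulus cells. Without that filter on low values, the adjusted p was 0.0696 for Col4a1, 0.150 for Col6a1, 0.0712 for Col4a2 and 0.0516 for Sparc. Values without overlap of the genotypes were found for 11 genes in the higher direction (18.2% of all genes) and for 4 in the lower direction (24.1%). The median difference was 0.55 on the log2 scale, compared with -0.06 over all genes tested. Without the first Sphk1/2gc-/- library, 7 genes were called higher (with 1305 of 12335 genes called in either direction), and without the first WT library 0 were called lower. The 17 genes not tested had means under 0.5 FPKM in both genotypes and included Hspg2, Nid2, Lama5, Col18a1 and Col15a1.

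Lox, the lysyl oxidase, had the largest difference of the list on the log2(FPKM + 1) scale. It had 6.90, 3.74 and 4.85 FPKM in WT cumulus libraries (530, 321 and 407 reads) and 15.7, 25.9 and 20.6 FPKM (1411, 2449 and 1891 reads) in Sphk1/2gc-/- libraries. The lowest Sphk1/2gc-/- value was above the highest WT value, and the means differed 4.02-fold (log2 difference 1.82, SE 0.242, adjusted p = 0.00263). Thbs1 rose from 188, 144 and 198 FPKM to 381, 578 and 684 FPKM, again without overlap, which is 3.10-fold (log2 difference 1.60, SE 0.237, adjusted p = 0.00396). Both genes passed the test in each of the 11 alternative settings, with log2 differences of 1.65 to 2.03 for Lox and 1.42 to 1.84 for Thbs1. Exons of both overlap an unnamed or predicted gene on the opposite strand (AC161119.1 for Lox, Gm29233 for Thbs1), and the library kit does not mark strand. With its rise, Thbs1 made 76.8% to 80.6% of the FPKM of all 39 genes in Sphk1/2gc-/- cumulus cells.

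Col4a1 and Col4a2, which share the promoter shown above, both rose from a low level. Col4a2 was at 2.22, 2.74 and 5.54 FPKM in Sphk1/2gc-/- cumulus cells (277, 358 and 703 reads), compared with 0.403 to 1.19 FPKM in WT (log2 difference 1.29, SE 0.282, adjusted p = 0.0155). Col4a1 was at 0.910, 1.29 and 1.89 FPKM (128, 190 and 270 reads), compared with 0.0596 to 0.420 in WT (log2 difference 0.89, SE 0.193, adjusted p = 0.0147). The genotypes did not overlap for either gene. As FPKM, the means differed 4.45-fold for Col4a2 and 5.19-fold for Col4a1, and Col4a1 was called too with a pseudocount of 0.1 or by voom on recovered reads. Without the second WT cumulus library, the adjusted p was 0.0586 for Col4a2 and 0.0564 for Col4a1, and without the third Sphk1/2gc-/- library Col4a2 fell just short of the fold limit (log2 difference 0.98). Even after the rise, both were far below the MGC level of 26.99 to 84.4 FPKM. The share of Col4a1 and Col4a2 in the summed collagen IV FPKM was 61.9%, 50.4% and 63.1% in Sphk1/2gc-/- cumulus cells, above each of the WT shares of 22.4% to 38.6%. Col4a5 was at 1.38, 3.25 and 3.67 FPKM compared with 1.94, 1.28 and 1.39 in WT, where the genotypes overlapped (adjusted p = 0.177). Col4a3, Col4a4 and Col4a6 stayed at or under 0.451 FPKM.

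Of the laminin chains, Lama1 and Lamb2 passed the adjusted p. Lama1 had 15.9, 24.1 and 26.1 FPKM in Sphk1/2gc-/- cumulus cells and 9.03, 12.7 and 14.5 in WT (1.82-fold, log2 difference 0.81, SE 0.236, adjusted p = 0.0426). Lamb2 had 1.71, 2.26 and 2.19 FPKM and 0.797, 0.896 and 1.26 in WT (2.09-fold, log2 difference 0.62, SE 0.155, adjusted p = 0.0247). Both were without overlap, and both missed the adjusted p of 0.05 without the first or second WT library and without the second or the third Sphk1/2gc-/- library. Lamb1 had 2.66, 5.63 and 6.83 FPKM compared with 2.59, 1.58 and 2.60 in WT, where the lowest Sphk1/2gc-/- value was just above the highest WT value (adjusted p = 0.0692). The gamma chain Lamc1 had 2.28, 3.24 and 4.90 FPKM compared with 2.76, 2.39 and 2.91 (adjusted p = 0.456). Fn1, which encodes fibronectin, had 1.57, 3.65 and 2.66 FPKM in Sphk1/2gc-/- and 1.04, 0.900 and 1.34 in WT cumulus cells (2.41-fold, log2 difference 0.76, SE 0.222, adjusted p = 0.0428). It too lost the adjusted p of 0.05 in 7 of 11 alternatives, the replicate block (0.0643) included. Fbn2 (fibrillin 2, a microfibril protein) had 3.81, 8.72 and 8.87 FPKM and 3.13, 4.22 and 3.17 in WT, with the first Sphk1/2gc-/- library inside the WT range (adjusted p = 0.0781). Fbln1 had 51.8, 53.7 and 63.5 FPKM against 26.9, 34.96 and 49.2 in WT (adjusted p = 0.0765), Fbln5 0.330, 1.01 and 0.958 against 0.171, 0.113 and 0.231 (adjusted p = 0.0576), and Fbn1 0.630, 0.713 and 0.701 against 0.292, 0.234 and 0.427 (adjusted p = 0.0842).

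**Figure D4:**
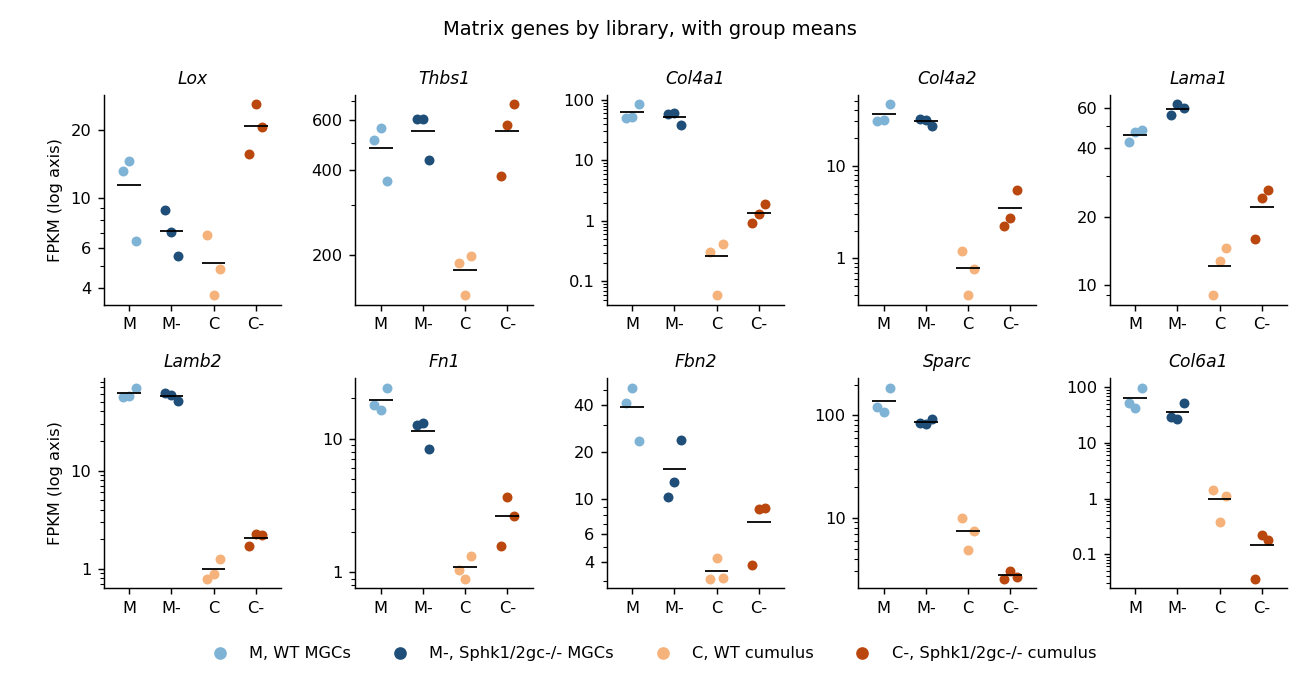
FPKM (log axis, with a range of its own in each panel) of the 10 matrix genes that passed an adjusted p of 0.05 in a genotype comparison or in the difference between cell types. Points are libraries 1 to 3 and lines are group means for WT MGCs (M), Sphk1/2gc-/- MGCs (M-), WT cumulus cells (C) and Sphk1/2gc-/- cumulus cells (C-). The C- points of Lox, Thbs1, Col4a1, Col4a2, Lama1, Lamb2 and Fn1 are above all C points, and those of Sparc and Col6a1 are below them.

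Sparc and Col6a1 went the other way. Sparc had 9.99, 4.83 and 7.37 FPKM in WT cumulus cells and 2.55, 3.05 and 2.62 FPKM in Sphk1/2gc-/- cumulus cells, which is 2.70-fold lower without overlap (log2 difference -1.12, SE 0.228, adjusted p = 0.0118). Without the first WT library the difference was -0.90, under the fold limit. Col6a1 had 1.43, 0.381 and 1.13 FPKM (101, 30 and 87 reads) in WT and 0.0364, 0.220 and 0.179 FPKM (3, 19 and 15 reads) in Sphk1/2gc-/- cumulus cells (log2 difference -0.75, SE 0.216, adjusted p = 0.0400). Col6a1 missed the adjusted p of 0.05 in 7 of 11 alternatives, among them the replicate block (0.0712) and the fits without the first (0.126) or the third (0.101) WT library. Lama4, a laminin chain of vessels and stroma, had 0.741, 0.309 and 0.760 FPKM and 0.163, 0.113 and 0.104 (adjusted p = 0.0536). Within WT cumulus cells, library 2 was the lowest for all 3 genes. The summed theca, fibroblast and smooth muscle markers were 66.7, 18.2 and 38.7 FPKM in the same WT libraries and 12.3, 33.9 and 25.2 FPKM in those of Sphk1/2gc-/- mice, which overlapped. Of 6 markers of that list tested, 5 had negative estimates and 2, Cyp17a1 and Lum, were called lower (3.85% of all genes). In contrast, Acta2 overlapped. Pdgfra and Pdgfrb, which stayed under the filter at no more than 0.723 FPKM, were higher in Sphk1/2gc-/- libraries without overlap. Summed markers of red blood cells were 26.8, 4.37 and 20.7 FPKM in WT against 0.841, 1.78 and 0.300 FPKM in Sphk1/2gc-/- cumulus cells. Summed oocyte markers were 7.17, 3.89 and 6.16 FPKM against 2.20, 2.64 and 2.51 FPKM. Neither sum overlapped, and WT library 2 was again the lowest of the WT libraries in each. In that library, however, Alas2 made 4.03 of the 4.37 FPKM of the red blood cell markers. Its globin values, such as 0.274 FPKM for Hba-a1 and 0.0724 FPKM for Hbb-bs, lay within the Sphk1/2gc-/- range. Of 4 red blood cell markers tested, 1, Alas2, was lower without overlap (24.1% of all genes). The part of other cells in the lower values of Sparc, Col6a1 and Lama4 was not tested. Endothelial markers summed to at most 1.34 FPKM in any cumulus library. Of the 10 granulosa markers, 4 were called lower (3.85% of all genes) and 0 higher (4.19%) in Sphk1/2gc-/- cumulus cells. Their summed levels were 4007 to 5186 FPKM in WT and 2738 to 3103 FPKM in Sphk1/2gc-/- libraries.

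The remaining genes tested in cumulus cells were Nid1, Agrn, Efemp1, Efemp2 and Tnc. The genotypes overlapped for Nid1, Agrn, Efemp1 and Efemp2, with group means of 1.12 and 1.32 FPKM (Nid1), 1.17 and 0.912 FPKM (Agrn, with 0.852, 0.676 and 1.21 FPKM in the Sphk1/2gc-/- libraries), 3.10 and 1.42 FPKM (Efemp1) and 4.58 and 5.46 FPKM (Efemp2) in WT and Sphk1/2gc-/- cells. Tnc, a glycoprotein of remodelling matrix, had 1.17, 0.952 and 0.894 FPKM in WT and 0.772, 0.540 and 0.496 in Sphk1/2gc-/- cumulus cells, which did not overlap (adjusted p = 0.128). Spock2, which was not tested, had 0.326, 0.322 and 0.226 FPKM in WT against 0.0480, 0.192 and 0.226 in Sphk1/2gc-/- cumulus cells.

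In MGCs, by contrast, no matrix gene was called between the genotypes. Limma called 0 of 37 genes higher and 0 lower, where 0.00654% and 0.0327% of all 15279 genes tested were called, which is 1 and 5 genes. At an unadjusted p of 0.05 or less, 1 gene was higher (3.31% of all genes) and 10 were lower (5.90%), and voom on recovered reads called 0. The estimates were mostly negative (30 of 37), with a median of -0.24 on the log2 scale compared with -0.003 over all genes tested. The genotypes did not overlap for 11 genes in the lower direction (9.17% of all genes) and for 1, Lama1, in the higher direction (7.72%). With libraries 1 and 2 of each genotype alone, 16 genes were lower and 2 (Lama1 and Fbln1) higher at an adjusted p of 0.05 or less. The share of all genes at that adjusted p alone was not counted in this setting, so that these counts have no background here. With the fold limit too, 4 of the genes were called lower (Tnc, Fbn2, Col4a6 and Col15a1). The calls over all genes in either direction, at the same limits, went from 6 of 15279 to 477 of 15433. Without the third Sphk1/2gc-/- library, 1 gene, Tnc, was called lower (adjusted p = 0.0382), with 170 of 15215 genes called in all.

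Tnc had the smallest p in MGCs, with 8.95, 7.74 and 6.06 FPKM in WT and 2.74, 2.78 and 3.58 in Sphk1/2gc-/- cells (2.50-fold lower, log2 difference -1.08, SE 0.184, adjusted p = 0.152). Col4a5 and Col4a6, the pair on chromosome X, were at 25.7, 26.0 and 18.1 FPKM and at 6.00, 6.21 and 3.17 FPKM in WT MGCs. In Sphk1/2gc-/- MGCs Col4a5 had 13.2, 14.8 and 6.45 FPKM (adjusted p = 0.383) and Col4a6 2.26, 2.47 and 1.35 FPKM (adjusted p = 0.334). Neither gene overlapped between the genotypes, and in both genotypes library 3 was the lowest. Their share in the summed collagen IV FPKM was 27.5%, 27.3% and 13.7% in WT and 14.4%, 15.5% and 10.1% in Sphk1/2gc-/- MGCs, which overlapped in WT library 3. Col4a1 (58.2, 60.3 and 38.1 FPKM in Sphk1/2gc-/- MGCs) and Col4a2 (31.6, 31.4 and 26.99 FPKM) overlapped with WT, with log2 differences of -0.22 (95% confidence interval -0.85 to 0.41) and -0.23 (-0.67 to 0.20).

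Col15a1, which encodes an endostatin collagen of vascular and muscle laminae, had 3.75, 2.87 and 5.58 FPKM in WT against 0.985, 1.10 and 2.10 FPKM in Sphk1/2gc-/- MGCs (adjusted p = 0.294). Col5a2, Loxl2, Fn1, Sparc, Lamc1, Lama4 and Efemp2 were the other genes without overlap in the lower direction, with log2 differences of -0.74, -0.46, -0.72, -0.64, -0.34, -0.56 and -0.22. Fn1 had 17.7, 16.4 and 24.1 FPKM in WT against 12.7, 13.1 and 8.41 FPKM in Sphk1/2gc-/- MGCs (adjusted p = 0.379). Sparc had 83.3, 81.6 and 92.1 FPKM in Sphk1/2gc-/- MGCs, below each WT library (adjusted p = 0.439). Lama1 had 55.7, 62.4 and 59.8 FPKM, above the WT libraries by 1.29-fold (log2 difference 0.36, SE 0.115, adjusted p = 0.410). Fbn2 had the largest estimate, with 41.1, 51.5 and 23.5 FPKM in WT and 10.4, 12.9 and 23.8 in Sphk1/2gc-/- MGCs (log2 difference -1.26, SE 0.373, adjusted p = 0.372), and its genotypes overlapped in libraries 3. Spock2 had 18.6, 19.2 and 79.6 FPKM in Sphk1/2gc-/- MGCs, so that library 3 lay above all WT values and libraries 1 and 2 below them. Agrn (19.9, 19.4 and 26.7 FPKM), Lamb2 (61.5, 59.1 and 50.9 FPKM), Fbln1 (291, 276 and 200 FPKM) and Col6a1 (29.6, 26.9 and 51.5 FPKM) overlapped with WT. Lamc1 had 28.9, 27.7 and 32.1 FPKM.

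Markers of other cells were compared in MGCs too, and 0 of those tested passed an adjusted p of 0.05 in the limma fit. All 10 endothelial markers were lower in Sphk1/2gc-/- MGCs without overlap (9.17% of all genes), Cdh5 only just (5.5286 against 5.5298 FPKM). Their median log2 difference was -0.55, with sums of 21.6 to 26.2 FPKM in WT and 11.6 to 15.6 FPKM in Sphk1/2gc-/- libraries. Of 11 theca, fibroblast and smooth muscle markers tested, 10 had negative estimates, with overlapping sums of 198 to 381 and 170 to 223 FPKM. Summed leukocyte markers were 161 to 307 FPKM in WT and 20.5 to 108 FPKM in Sphk1/2gc-/- MGCs, most of it from S100a8, S100a9 and Lyz2, while the 7 leukocyte markers tested had 3 positive and 4 negative estimates with a median of -0.01. Summed markers of red blood cells were 262 to 404 and 30.6 to 291 FPKM. Col15a1, Lama4, Col4a1, Hspg2, Sparc and Col18a1 are also made by vessels, and the part of other cells in the lower estimates was not tested.

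**Figure D5:**
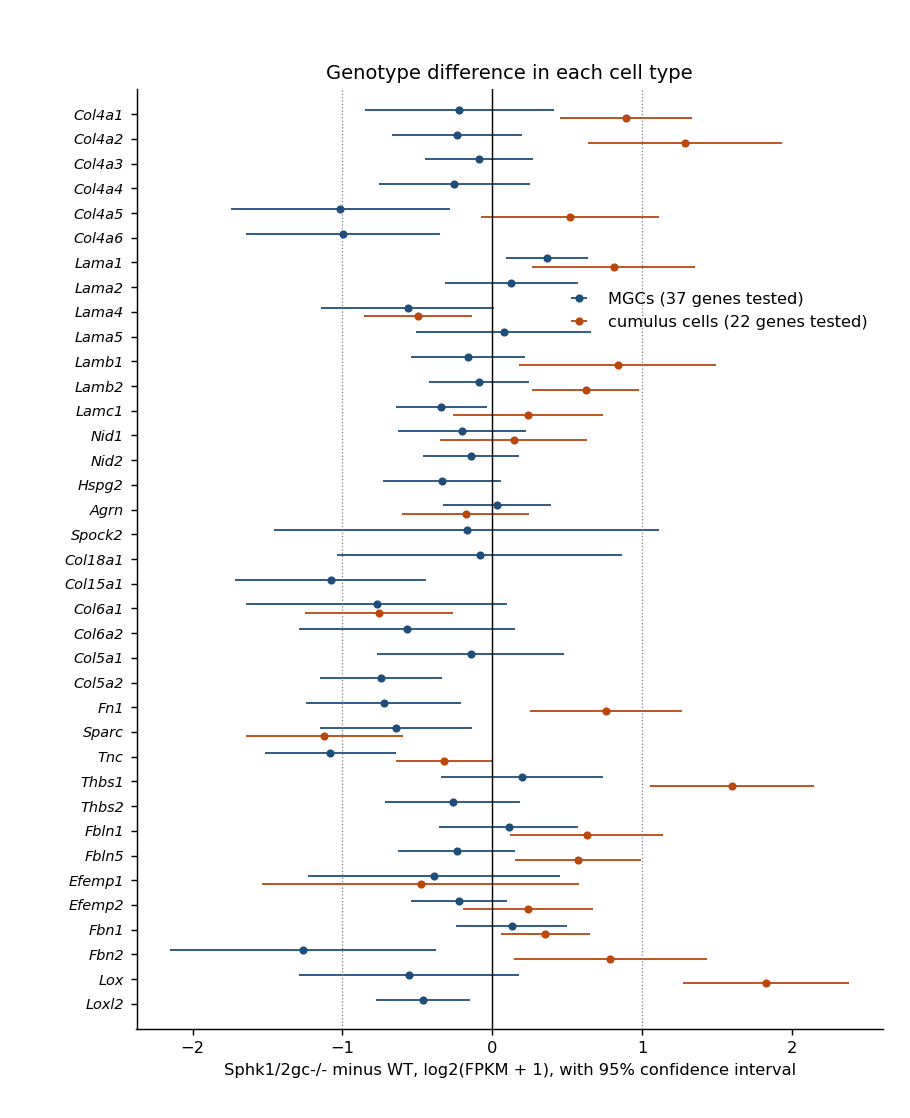
Log2 difference (Sphk1/2gc-/- minus WT, on log2(FPKM + 1)) of the matrix genes with 95% confidence intervals, in MGCs (37 genes tested) and in cumulus cells (22 genes tested), dotted lines marking a fold change of 2. In cumulus cells the values of Lox, Thbs1 and Col4a2 lie above 1 and that of Sparc below -1, whereas most MGC points lie between 0 and -1.

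The difference of the genotype effect between the cell types was then tested in a model of all 12 libraries. Of 37 genes, 5 had a higher genotype effect in cumulus cells than in MGCs (2.45% of all 15869 genes tested), and 0 had a lower one (1.48%, with 0 of 37 at an unadjusted p of 0.05 or less and 0 by voom). These 5 were Lox (difference of log2 differences 2.38, SE 0.419, adjusted p = 0.0160), Fn1 (1.48, SE 0.334, adjusted p = 0.0351), Col4a2 (1.52, SE 0.370, adjusted p = 0.0443), Fbn2 (2.05, SE 0.507, adjusted p = 0.0468) and Thbs1 (1.40, SE 0.351, adjusted p = 0.0487). The estimate was positive for 31 of the 37 genes, with a median of 0.44 compared with -0.03 over all genes tested. However, only 22 genes of the list reached a mean of 0.5 FPKM in cumulus cells of either genotype. For the others, the cumulus difference on this scale is held small, so that a positive sign mostly mirrors a negative MGC estimate. In MGCs, 30 of 37 estimates were negative. Col4a6 and Col15a1 lay just outside, with adjusted p of 0.0503 and 0.0625. Both stayed under 0.5 FPKM in every cumulus library, where Col15a1 had 0 to 7 reads. Their values thus rest mainly on the MGC log2 differences of -0.99 and -1.08. With the replicate number as a block, 1 gene, Lox, passed. The count was 0 to 10 on leaving out single libraries, with 0 without the first WT MGC library and 10 without the first Sphk1/2gc-/- cumulus library, and 11 without the third MGC libraries. Over all genes, 624 of 15869 passed in either direction with all libraries, and 108 of 15855, 1189 of 15917 and 2474 of 15973 passed in these settings. Lox passed in 17 of 18 alternatives. For Sparc the effect had the same sign in both cell types, with log2 differences of -0.64 in MGCs and -1.12 in cumulus cells, and a difference between them of -0.48 (adjusted p = 0.434).

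Genes of the matrix outside the 39 were read from 3 further lists. Of 37 other chains and matrix proteins, 9 could be tested in cumulus cells, and 2 were called higher (4.19% of all genes) and 0 lower (3.85%). They were Tinagl1, which encodes a basement membrane glycoprotein (0.157, 0.102 and 0.183 FPKM in WT and 2.21, 1.89 and 4.28 in Sphk1/2gc-/- cumulus cells, log2 difference 1.67, adjusted p = 0.00283), and Smoc2, a relative of Sparc that binds calcium (22.1, 27.4 and 47.8 FPKM and 78.6, 59.8 and 77.4 FPKM, log2 difference 1.19, adjusted p = 0.0185). Tinagl1 reached the mean of 0.5 FPKM in Sphk1/2gc-/- cumulus cells alone, so that it had to be higher there. Of 22 tested genes of collagen folding, export and cross-linking, 0 were called higher (4.19% of all genes) and 1 lower, which is near the 3.85% of all genes called lower. This was Colgalt2, a collagen galactosyltransferase (12.4, 7.06 and 9.15 FPKM in WT and 1.93, 1.69 and 2.44 in Sphk1/2gc-/- cumulus cells, log2 difference -1.78, adjusted p = 0.00172).

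Of 19 receptors of the matrix tested in cumulus cells, 6 were called higher and 0 lower in Sphk1/2gc-/- mice, and 12 were higher without overlap. Over all genes, 4.19% were called higher, 3.85% were called lower and 18.2% were higher without overlap. Cd44, Itga3 and Sdc3 stayed under 0.5 FPKM in every WT cumulus library. They were tested through Sphk1/2gc-/- cumulus cells alone and so had to be higher. Cd44, the hyaluronan receptor, rose from 0.222 to 0.348 FPKM in WT libraries to 4.71 to 7.13 FPKM (log2 difference 2.32, adjusted p = 0.000350). Itga5, the integrin chain that binds fibronectin, rose from 0.288 to 1.01 FPKM to 6.90 to 14.8 FPKM (log2 difference 2.72, adjusted p = 0.00101). The syndecans Sdc1 (log2 difference 2.87, adjusted p = 0.00179) and Sdc4 (1.62, adjusted p = 0.00204) are heparan sulfate proteoglycans of the cell surface that bind matrix proteins. In MGCs, none of the 88 tested genes of the 3 lists was called (0 higher and 0 lower, where 0.00654% and 0.0327% of all genes were called). In WT mice, 23 of 31 chains and matrix proteins, 21 of 28 genes of collagen folding and 20 of 29 receptors were called lower in cumulus cells than in MGCs (34.5% of all genes), and 1, 1 and 0 were called higher (16.0%).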

How the data were processed

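RNA of MGCs and cumulus cells was sequenced in 12 libraries, 3 per genotype and cell type. The authors deposited FPKM values in 1 table per cell type, and the submitters' processing notes name HISAT2 and GRCm38, while the step from alignments to FPKM is not given in the sources used here. The products of FPKM and GENCODE exon length were whole multiples of 1 read for 90.6% to 92.1% of values (tolerance 0.02), which gave the read counts. Genes that averaged 0.5 FPKM or more in a compared group were tested with limma 3.58.1 (R 4.3.3) on log2(FPKM + 1) with a variance trend and Benjamini-Hochberg adjustment over all genes tested. The fit was first checked on simulated data. There, only genes well above that mean were changed, all by more than the fold limit. The check thus does not cover smaller changes or genes near the filter. Every adjusted p is from the limma fit on log2(FPKM + 1) unless another setting is named with it. A call needed an adjusted p of at most 0.05 and, except for the difference between cell types, at least a 2-fold change. The members, the lists and the tests were chosen with earlier results of these data known. Genes with an adjusted p of 0.05 or less in a genotype comparison or in the difference between cell types, and the 12 highest by mean level over all libraries, 14 genes in all, are given in every library, and those of other members were added after their values were seen. Libraries of the same number correlated after removal of the group means at 0.220, 0.158 and 0.224 in MGCs, where those of unlike number reached 0.155. In cumulus cells the values for the same number were -0.148, -0.0511 and 0.115. The MGC values were taken as a possible pairing, which the labels do not state. The main fits were not blocked, and a fit blocked by library number was an alternative. Results blocked by library number are stated where a call changes. The library kit does not mark strand, and exons of 17 of the 39 genes overlap a gene on the opposite strand, such as Col4a1 with Col4a2, whose reads cannot be told apart there.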

Additional observations from a re-analysis of the deposited data

Results flagged for a closer look

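In 5 matrix genes the genotype effect differed between the cell types by the interaction test of the limma model, which is why they are listed here. The difference, cumulus cells minus MGCs, was 2.38 on the log2 scale for Lox, 2.05 for Fbn2, 1.52 for Col4a2, 1.48 for Fn1 and 1.40 for Thbs1. Fn1, Fbn2 and Lox had negative estimates in MGCs (-0.72, -1.26 and -0.56) and positive ones in cumulus cells (0.76, 0.79 and 1.82). Col4a2 was at -0.23 and 1.29, and Thbs1 was at 0.20 and 1.60. Of these, only the cumulus values of Lox, Thbs1, Col4a2 and Fn1 passed an adjusted p of 0.05 within a cell type. Without the first WT MGC library 0 of the 5 passed, and in the model blocked by replicate number 1 of them, Lox, did.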

How the results depend on the processing

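The comparison of genotypes in cumulus cells called 3 matrix genes higher and 1 lower. With a pseudocount of 0.1 these counts were 6 and 2, and with voom on recovered reads 9 and 3. The calls over all genes under voom are not given here, so that its counts have no background. By adjusted p alone the counts were 7 and 2 (9.66% and 12.7% of all genes), and without a filter on low values 0 were called lower. Over all genes, 981 of 12205 were called in either direction in the main analysis. With the pseudocount of 0.1 the calls over all genes rose as well, to 1674 of 12205, and without the filter they were 721 of 30985. Leaving out 1 library gave 2 to 7 higher and 0 to 1 lower. In MGCs, MGC libraries 1 and 2 alone gave 4 genes lower, and leaving out 1 library gave 0 to 1, where 0 were called with all libraries. The difference between cell types counted 5 genes. It counted 1 without the filter, 1 with the replicate block, 11 without the third MGC libraries and 0 to 10 on leaving out 1 library. The counts without the filter and with the block are given without the calls over all genes. Between the cell types, 29 to 37 genes were lower in WT cumulus cells over all alternatives (34 in the main analysis) and 22 to 35 in Sphk1/2gc-/- cumulus cells (33). Both ranges are given without the calls over all genes. Fbln5 turned from -0.59 to 0.12 in the comparison of Sphk1/2gc-/- cell types under quantile normalization. Of the values of single genes under the alternatives, 103 lost the adjusted p of 0.05, 53 gained it and 2009 stayed on the same side, where estimates that passed in neither setting may differ in sign. The causes were not tested. Genes under 0.5 FPKM in cumulus cells rest on few reads, so that 17 of 39 genes could not be compared there. With 3 libraries a group, p-values cover the spread of these libraries alone.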
